A study of Mus musculus with 16 samples.

Results

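The subject is the set of 7 genes that carry MHC class II antigen presentation: H2-Aa, H2-Ab1, H2-Eb1, Cd74, Ciita, H2-DMa and H2-DMb1. They were taken by gene symbol from a count table of 29695 genes, and all 7 passed the expression filter that left 15984 genes for testing. The samples were suprarenal aortae, the segment of the abdominal aorta above the renal arteries, from male mice lacking Vamp8 (KO, Vamp8-/-) and from C57BL/6 wild-type mice (WT). KO AngII mice and WT AngII mice received angiotensin II, a peptide hormone that constricts vessels, at 1000 ng/kg/min from an osmotic pump under the skin for 5 days. KO saline mice and WT saline mice received saline from such pumps for the same 5 days. Each of the 4 groups had 4 polyA RNA libraries that the labels call biological replicates. The sources used here do not give how the Vamp8 allele was made, the age of the mice or whether a library holds 1 aorta. The submitters had left out vessels whose walls had bled or looked diseased, so such vessels are not represented.

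MHC class II molecules are pairs of an alpha and a beta chain that display peptides from endocytosed proteins to CD4+ T cells. The pairs assemble with the invariant chain, which fills the peptide groove and steers them to endosomes, where proteases remove it and the H2-M molecule exchanges the remaining fragment for other peptides. Dendritic cells, B cells and many macrophages make class II molecules constantly. Endothelial and smooth muscle cells can be induced to do so by interferon-gamma, which acts through the transactivator CIITA.

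H2-Aa (ENSMUSG00000036594) and H2-Ab1 (ENSMUSG00000073421) encode the alpha and beta chain of I-A, and H2-Eb1 (ENSMUSG00000060586) the beta chain of I-E. Cd74 (ENSMUSG00000024610) encodes the invariant chain and Ciita (ENSMUSG00000022504) the transactivator. H2-DMa (ENSMUSG00000037649) and H2-DMb1 (ENSMUSG00000079547) encode chains of H2-M. All are annotated as protein-coding. C57BL/6 mice do not transcribe the I-E alpha chain gene H2-Ea, which was not analysed here.

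CIITA binds no DNA itself. It is recruited to class II promoters by the RFX and NF-Y complexes on the X and Y boxes, so the promoters are shown for what they share. RefSeq windows of 300 bases on GRCm38.p6, from 250 bases before to 50 after the gene start, matched H2-Aa, H2-Eb1, H2-DMa (2 windows) and H2-DMb1. H2-Ab1 and Ciita had no entry, and Cd74 was left out of this search, so nothing is said of its promoter. The letters searched on both strands were ATTGG, the core of the Y box, and GCAAC, a core of the X1 box. The stretches are chr17:34287842-34287929 on the minus strand for H2-Aa, chr17:34305751-34305837 on the plus strand for H2-Eb1 and chr17:34153072-34153159 on the plus strand for H2-DMb1. Capitals mark GCAAC and the ATTGG after it, or ATTGG alone in H2-DMb1; H2-Eb1 held another ATTGG on the opposite strand, left in lower case.
H2-Aa: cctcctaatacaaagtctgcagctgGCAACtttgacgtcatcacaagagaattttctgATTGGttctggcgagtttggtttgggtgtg
H2-Eb1: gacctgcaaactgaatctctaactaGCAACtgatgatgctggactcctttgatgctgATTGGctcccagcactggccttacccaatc
H2-DMb1: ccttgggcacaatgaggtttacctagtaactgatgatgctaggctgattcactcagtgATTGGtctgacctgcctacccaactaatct

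In H2-Aa, GCAAC began 81 bases before the gene start, with 28 bases between it and ATTGG. In H2-Eb1 it began 91 bases before the start, with a gap of 27 bases. A GCAAC and an ATTGG separated by 15 to 35 bases occurred in 3.00% of the 32851 windows, while ATTGG alone occurred in 37.4% and GCAAC alone in 35.2%. TGACG occurred in 20.8% of the windows. H2-Aa held it on both strands, left in lower case, and the windows of the other members searched had none. H2-DMb1 had ATTGG 61 bases before its start and no GCAAC in the window. Neither H2-DMa window held such a pair. H2-Ob, which encodes a chain of H2-O, an inhibitor of H2-M, held the pair with a gap of 25 bases at chr17:34238793-34238877 on the plus strand, and H2-DMb2, a second H2-M beta chain gene, held ATTGG and no GCAAC at chr17:34145101-34145188 on the plus strand. Both are shown because their RNA stood apart in a library described later.
H2-Ob: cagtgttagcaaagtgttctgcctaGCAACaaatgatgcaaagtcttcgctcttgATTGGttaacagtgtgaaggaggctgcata
H2-DMb2: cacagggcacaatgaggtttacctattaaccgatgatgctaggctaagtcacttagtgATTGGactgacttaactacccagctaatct

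Library totals ran from 13284804 to 21643548 counts. Of 5 smooth muscle markers, Acta2 and Myh11, the most abundant, were at 3249 to 13064 and 1444 to 5889 CPM. CPM are counts scaled to the library's size after TMM normalisation. Tagln, another of the 5, was at 16.6 to 61.2 CPM. Adipocyte markers were abundant too, with a sum of 1354 to 9972 CPM. Vamp8 was at 14.1 to 26.7 CPM in KO AngII, 24.9 to 53.3 CPM in KO saline, 52.3 to 60.9 CPM in WT AngII and 45.9 to 57.2 CPM in WT saline. The highest KO value, 53.3 CPM, belonged to the library labelled KO saline replicate 1, whose Vamp8 level goes against its label. Its Fcer1g level, 2.97 CPM, and mitochondrial share, 32.8%, were near those of the other KO saline libraries (2.00 to 3.80 CPM and 27.0 to 31.2%). WT libraries had 5.90 to 30.0 CPM and 8.33 to 17.7%. Both measures were picked after their values were seen, and the cause of the Vamp8 level was not tested. The other KO libraries kept Vamp8 reads too, at 14.1 to 31.4 CPM. At an adjusted p under 0.05 in edgeR's test, Vamp8 was lower in KO AngII than in WT AngII (log2 fold change -1.29). It did not pass in KO saline against WT saline. Mitochondrially encoded genes took 10.1 to 24.3% of counts in KO AngII, 27.0 to 32.8% in KO saline, 9.56 to 16.3% in WT AngII and 8.33 to 17.7% in WT saline. Nerve and adrenal markers summed to 1607 CPM in KO AngII replicate 4, and skeletal muscle markers to 518 CPM in KO saline replicate 3. Among all genes, 2725 had 0 reads in all WT libraries and 1401 in all KO libraries. The 2725 were exactly the genes that carried no symbol in the counts. No member was among the genes without reads in a genotype, but a difference in counting between genotypes cannot be told apart from genotype.

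Levels of the 7 genes are comparable between genes only per length, here the merged exons of each gene. Cd74 was the most abundant at 86.5 ± 29.5 CPM per kb (SD over 16 libraries), followed by H2-Eb1 at 33.0 ± 11.8, H2-Ab1 at 27.4 ± 9.44 and H2-Aa at 16.6 ± 5.97 CPM per kb. H2-DMb1 followed at 6.77 ± 2.21 and H2-DMa at 2.49 ± 0.772 CPM per kb, and Ciita was lowest at 0.443 ± 0.258 CPM per kb. The 5 H2 genes lie on chromosome 17, Ciita on chromosome 16 and Cd74 on chromosome 18. Each gene exceeded the next in all 16 libraries, apart from H2-Eb1 and H2-Ab1, whose order held in 15. The read counts behind these levels ran from 762 to 3904 for Cd74, from 112 to 363 for H2-DMb1, from 58 to 237 for H2-DMa and from 24 to 210 for Ciita. Exons of Ciita share 329 bases with Dexi and those of H2-DMa share 360 bases with genes on the other strand. The sources used here give no strand setting for the counting, so reads there cannot be assigned with certainty.

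The genes of the I-A heterodimer varied widely between libraries of the same group. H2-Ab1 had 52.1, 66.4, 87.3 and 103 CPM in KO AngII, 99.4, 69.7, 93.7 and 49.2 CPM in KO saline, 69.3, 64.8, 61.6 and 116 CPM in WT AngII, and 25.1, 71.7, 41.8 and 55.2 CPM in WT saline (replicates 1 to 4). H2-Aa had 58.0, 61.6, 81.6 and 92.8 CPM in KO AngII, 94.5, 61.5, 81.5 and 50.9 CPM in KO saline, 52.9, 55.6, 48.0 and 104 CPM in WT AngII, and 21.1, 66.1, 35.6 and 43.4 CPM in WT saline. For both genes WT AngII replicate 4 was the highest of the 16 libraries and WT saline replicate 1 the lowest, and every pair of groups overlapped. H2-Eb1 spanned 52.7 to 92.3 CPM in KO AngII, 42.2 to 100.03 in KO saline, 54.6 to 103 in WT AngII and 22.7 to 68.2 in WT saline, with the same libraries at both ends.

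Cd74 had 113, 143, 213 and 211 CPM in KO AngII, 207, 129, 176 and 98.1 CPM in KO saline, 137, 133, 122 and 219 CPM in WT AngII, and 51.7, 165, 85.7 and 121 CPM in WT saline. Its highest and lowest libraries were again WT AngII replicate 4 and WT saline replicate 1. The ratio of the highest to the lowest library was 4.93 for H2-Aa, 4.61 for H2-Ab1, 4.56 for H2-Eb1 and 4.23 for Cd74. It was 3.44 for H2-DMa, 2.84 for H2-DMb1 and 7.06 for Ciita.

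**Figure D1:**
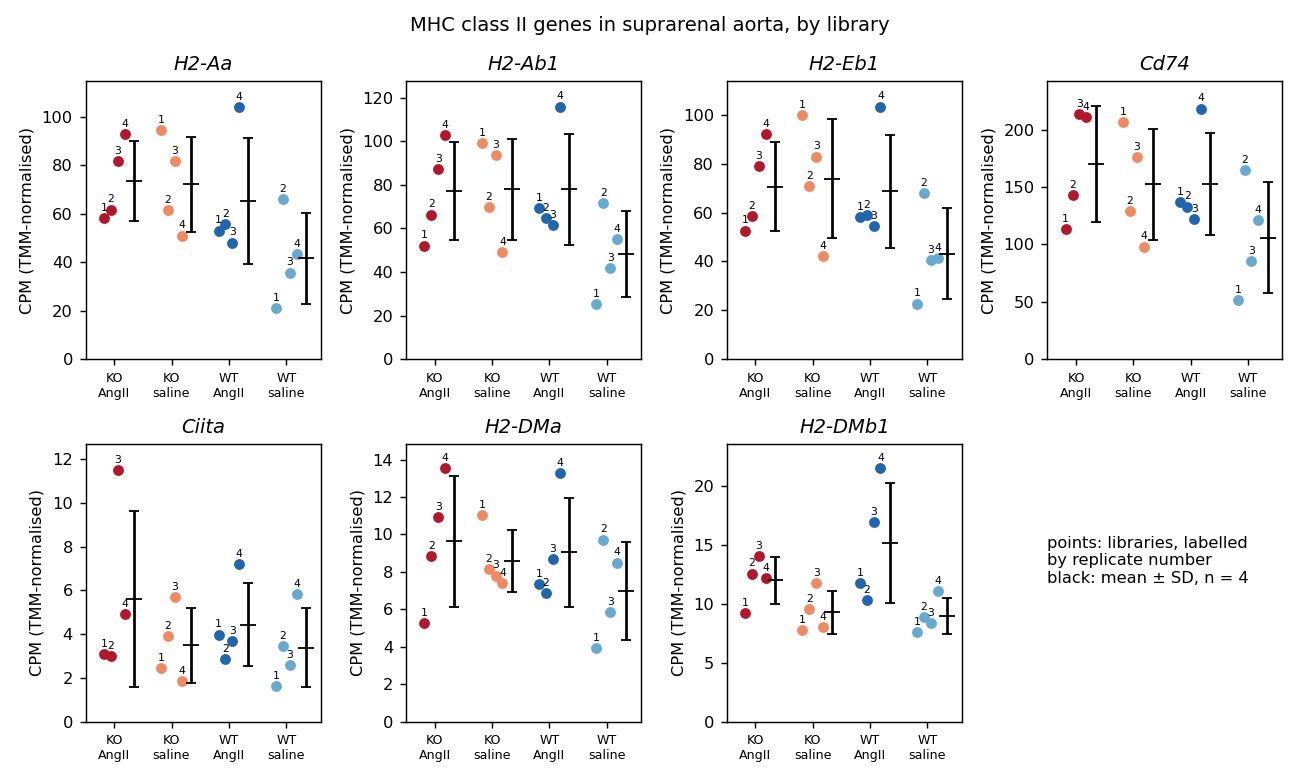
Each panel plots 1 of the 7 class II genes as TMM-normalised CPM on a linear axis from 0, with a point per library labelled by replicate number and the mean ± SD of each group in black (n = 4). WT saline replicate 1 is the lowest library in all 7 panels, WT AngII replicate 4 stands above the rest of its group, and KO AngII replicate 3 is the highest for Ciita.

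Ciita, the transactivator, had 3.08, 3.00, 11.5 and 4.91 CPM in KO AngII, 2.45, 3.92, 5.69 and 1.86 CPM in KO saline, 3.98, 2.87, 3.68 and 7.20 CPM in WT AngII, and 1.63, 3.46, 2.59 and 5.84 CPM in WT saline. Its highest value, in KO AngII replicate 3, was in the library where Cd74 and H2-DMb1 were also highest within KO AngII, while H2-Aa, H2-Ab1, H2-Eb1 and H2-DMa were highest in KO AngII replicate 4. H2-DMb1, the H2-M beta chain, had 9.23, 12.6, 14.1 and 12.2 CPM in KO AngII, 7.81, 9.60, 11.8 and 8.06 CPM in KO saline, 11.8, 10.4, 17.0 and 21.6 CPM in WT AngII, and 7.59, 8.87, 8.37 and 11.1 CPM in WT saline. H2-DMa, the H2-M alpha chain, ranged from 5.25 to 13.5 CPM in KO AngII, from 7.39 to 11.0 in KO saline, from 6.88 to 13.3 in WT AngII and from 3.93 to 9.72 in WT saline. All pairs of groups overlapped for each of these genes.

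The genes of the class II molecule itself moved together from library to library. Over the 16 libraries, Pearson correlations of log2 CPM among H2-Aa, H2-Ab1, H2-Eb1 and Cd74 ran from 0.961 (H2-Eb1 with Cd74) to 0.981 (H2-Ab1 with Cd74). With H2-DMa they had correlations of 0.843 to 0.903, with Ciita of 0.587 to 0.697 and with H2-DMb1 of 0.463 to 0.563. Ciita and H2-DMb1 correlated at 0.717. After each group's mean was removed, H2-Ab1 and Cd74 still correlated at 0.988, H2-Ab1 and Ciita at 0.698 and H2-Ab1 and H2-DMb1 at 0.560. The libraries share scaling and cell makeup across genes, so these values are descriptions. In bulk tissue, fewer cells of a type and less RNA per cell cannot be told apart.

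Ratios between genes of the same library do not depend on scaling. H2-Aa over H2-Ab1 ranged from 0.764 to 1.11 with a coefficient of variation of 10.1%, H2-Eb1 over H2-Ab1 from 0.747 to 1.02 (7.65%) and Cd74 over H2-Ab1 from 1.85 to 2.45 (7.58%). The coefficient was 16.7% for H2-DMa, 32.4% for H2-DMb1 and 42.2% for Ciita, each over H2-Ab1. The highest ratio of H2-DMb1 to H2-Ab1 was 3.84 times the lowest, a wider span than that of the H2-DMb1 level itself. The 6 ratios were compared in 4 pairs of groups by two-sided exact permutation tests on log2 ratios, 24 tests in all, whose smallest possible p is 0.0286. H2-Aa over H2-Ab1 reached that p, with 0.901 to 1.11 in KO AngII and 0.764 to 0.897 in WT AngII. So did Cd74 over H2-Ab1, with 1.88 to 2.05 in WT AngII and 2.05 to 2.30 in WT saline, the ranges touching within rounding. No ratio passed adjustment over the 24 tests (lowest adjusted p = 0.294).

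The first comparison, AngII against saline in WT mice, asks how the infusion alone changes class II genes. All 7 had positive log2 fold changes, and none passed edgeR's quasi-likelihood test at an adjusted p under 0.05 over all genes, a threshold that 0.444% of the 15984 genes passed. H2-DMb1 had the largest value, 15.2 ± 5.13 CPM in WT AngII and 8.99 ± 1.51 CPM in WT saline (SD, n = 4 each; log2 fold change 0.76, SE 0.23, edgeR adjusted p = 0.254, unadjusted 0.00502). H2-Ab1 had 77.9 ± 25.6 CPM in WT AngII and 48.4 ± 19.8 CPM in WT saline (0.69, SE 0.32, edgeR adjusted p = 0.563). The values of H2-Eb1, H2-Aa and Cd74 were 0.67, 0.65 and 0.53, and those of Ciita and H2-DMa 0.39 and 0.37. At an unadjusted p under 0.05 stood 2 of the 7 genes, H2-Ab1 and H2-DMb1, and 8.8% of all genes.

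The WT values moved with single libraries in both directions. Without WT AngII replicate 4 the log2 fold change was 0.33 for H2-Aa, 0.43 for H2-Ab1, 0.31 for Cd74, 0.05 for Ciita and 0.54 for H2-DMb1. Without WT saline replicate 1 it was 0.43 for H2-Aa, 0.48 for H2-Ab1, 0.31 for Cd74, 0.17 for Ciita and 0.69 for H2-DMb1. Without WT saline replicate 2 it was higher, at 0.96 for H2-Aa, 0.94 for H2-Ab1, 0.98 for H2-Eb1, 0.83 for Cd74 and 0.57 for H2-DMa, and without WT saline replicate 4 Ciita was at 0.79. WT AngII replicate 4 had the highest sums of 9 pan-leukocyte markers (315 CPM) and 14 macrophage markers (692 CPM) of all libraries. WT saline replicate 1 had the lowest leukocyte sum, 79.2 CPM. The part of cell makeup in the WT values was not tested.

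AngII against saline in KO mice asks the same of mice with the Vamp8-/- label. Of the 7 genes, 5 had positive and 2 negative log2 fold changes with a median of 0.16, and none was called, against 0.0501% of all genes. H2-Ab1 had 77.2 ± 22.5 CPM in KO AngII and 78.0 ± 23.1 CPM in KO saline (log2 fold change -0.02, SE 0.32, 95% interval -0.69 to 0.66, edgeR adjusted p = 0.983). H2-Aa was at 0.03, H2-Eb1 at -0.07, Cd74 at 0.16 and H2-DMa at 0.17. H2-DMb1 had 12.0 ± 2.02 CPM in KO AngII and 9.32 ± 1.84 CPM in KO saline (0.37, SE 0.23, edgeR adjusted p = 0.380). Ciita had the largest value, 0.69, with an SE of 0.50 (edgeR adjusted p = 0.451), and was at 0.061 without KO AngII replicate 3. Intervals of this width do not show that the levels were alike.

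Under saline, KO against WT asks how the genotypes differ without AngII. All 7 genes had positive log2 fold changes, the 3 chain genes the largest, and none was called, against 3.01% of all genes. H2-Aa had 72.1 ± 19.6 CPM in KO saline and 41.6 ± 18.8 CPM in WT saline (log2 fold change 0.79, SE 0.32, 95% interval 0.10 to 1.49, edgeR adjusted p = 0.177). H2-Eb1 had 74.0 ± 24.4 CPM in KO saline and 43.2 ± 18.8 CPM in WT saline (0.78, SE 0.33, edgeR adjusted p = 0.190). H2-Ab1 was at 0.69 (edgeR adjusted p = 0.227) and Cd74 at 0.53 (0.356), whereas Ciita was at 0.04 (0.975), H2-DMb1 at 0.05 (0.916) and H2-DMa at 0.30 (0.593). At an unadjusted p under 0.05 stood 3 of the 7 genes, the I-A and I-E chains, and 21.8% of all genes.

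The count of calls under saline changed under limma voom with library quality weights, and without WT saline replicate 2, the WT saline library with the highest H2-Aa, H2-Ab1, H2-Eb1 and Cd74 levels. The weighted voom fit, which changes the test and the weights together, called 4 genes, H2-Aa at 1.08, H2-Eb1 at 1.03, H2-Ab1 at 0.96 and Cd74 at 0.84. Over all genes it called 3197, where the main fit called 481. DESeq2 called none of the 7 genes (their lowest adjusted p = 0.128) and 1362 of all genes. Without WT saline replicate 2, edgeR called H2-Aa at 1.11 (adjusted p = 0.0422) and H2-Eb1 at 1.09 (0.0473), and 1744 of all genes. Without WT saline replicate 1, or without the library labelled KO saline replicate 1, no gene was called, and H2-Aa was at 0.57 without the first and at 0.60 without the second. The smooth muscle list had a median of -0.87 in this comparison (5 of 5 negative) and the adipocyte list one of 0.82 (5 of 5 positive), and the part of cell makeup was not tested. Mitochondrial shares were higher in all KO saline than in all WT saline libraries, and with those genes left out no class II gene was called either.

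Under AngII, KO against WT gave values from -0.34 for H2-DMb1 to 0.34 for Ciita, with none called against 2.03% of all genes. H2-DMb1 had 12.0 ± 2.02 CPM in KO AngII and 15.2 ± 5.13 CPM in WT AngII (SE of the log2 fold change 0.23, edgeR adjusted p = 0.504). H2-Aa was at 0.17, Cd74 at 0.16, H2-DMa at 0.09, H2-Eb1 at 0.04 and H2-Ab1 at -0.01. Without WT AngII replicate 4 H2-DMb1 was at -0.12, H2-Aa at 0.49, H2-Eb1 at 0.30, Cd74 at 0.38 and Ciita at 0.68. Ciita was at -0.29 without KO AngII replicate 3.

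The interaction asks whether the AngII response differed between genotypes. It was negative for 6 of the 7 genes, which is to say lower in KO than in WT mice, and none was called, against 0.0188% of all genes. The largest were those of H2-Eb1 (-0.74, SE 0.46, edgeR adjusted p = 0.528), H2-Ab1 (-0.70, SE 0.45, 0.535) and H2-Aa (-0.62, SE 0.46, 0.581). Ciita was the exception at 0.30. Without WT AngII replicate 4 the interaction was -0.30 for H2-Aa, -0.45 for H2-Ab1, -0.48 for H2-Eb1 and -0.15 for Cd74. Without WT saline replicate 2 it was -0.93 for H2-Aa, -0.95 for H2-Ab1, -1.05 for H2-Eb1 and -0.67 for Cd74. The groups of the interaction also enter the other comparisons, so these are not independent of each other.

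**Figure D2:**
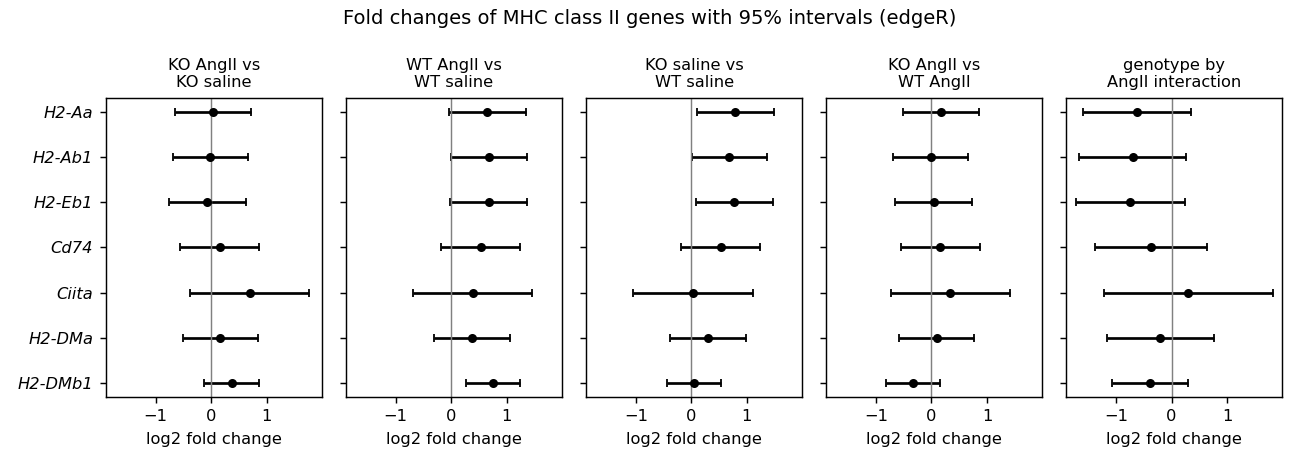
Points are log2 fold changes of the 7 class II genes in each comparison, first group over second, with 95% intervals from edgeR's fit of all 16 libraries, and the vertical line marks 0. Intervals of H2-Ab1 and H2-DMb1 in WT AngII against WT saline, and of H2-Aa, H2-Ab1 and H2-Eb1 in KO saline against WT saline, exclude 0 before adjustment for the number of genes.

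As a count of separation, no member had groups that did not overlap in CPM in any of the 4 pairs. Among all genes tested this held for 7.77% in KO AngII against KO saline, 6.24% in WT AngII against WT saline, 11.1% in KO saline against WT saline and 9.35% in KO AngII against WT AngII. The median log2 fold change of the 7 genes was 0.65 in WT AngII against WT saline and 0.53 in KO saline against WT saline, beside -0.01 and 0.05 over all genes. The 7 genes move together, so their shared sign is not 7 separate observations.

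Among 13 tested regulators of class II transcription, 1 was called higher and 1 lower in KO saline against WT saline, and none in the other comparisons. Of all genes, 3.01% were called in KO saline against WT saline. Irf1, a transcription factor induced by interferon, had 41.3, 44.4, 39.9 and 49.9 CPM in KO saline and 24.1, 28.9, 26.5 and 24.8 CPM in WT saline (log2 fold change 0.75, SE 0.13, edgeR adjusted p = 0.00824). Nfya, which encodes a subunit of the NF-Y complex, had 24.1, 29.8, 32.7 and 33.6 CPM in KO saline and 48.1, 42.1, 47.5 and 50.0 CPM in WT saline (-0.64, SE 0.14, edgeR adjusted p = 0.0257). The groups did not overlap for either gene, nor for 11.1% of all genes tested. Irf1 was called under all 25 other settings and Nfya under 19. Nfya was not called without WT saline replicate 1, 3 or 4, without KO saline replicate 2 or without the library labelled KO saline replicate 1 (highest adjusted p = 0.0804 over the settings). Rfx5, a subunit of the RFX complex, was at -0.11 (SE 0.17) in the same comparison. Ifng, which encodes interferon-gamma, had 3 reads in WT AngII replicate 1 and 0 in every other library, where a count of 0 allows up to 3 reads.

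Genes induced by interferon-gamma and genes of class I presentation all had positive log2 fold changes in KO saline against WT saline. Of all genes, 54.4% were positive and 3.01% were called in that comparison. Of 19 interferon-gamma targets, 1, Irf1, was called, and the median was 0.63 beside 0.05 over all genes. Of 12 class I genes, 1 was called, and the median was 0.68. That gene was B2m, the light chain of class I molecules, with 938, 942, 986 and 596 CPM in KO saline and 433, 639, 559 and 445 CPM in WT saline (log2 fold change 0.74, SE 0.19, edgeR adjusted p = 0.0474). B2m was called under 6 of 25 other settings only, with adjusted p up to 0.172, and not without the library labelled KO saline replicate 1 (adjusted p = 0.124), nor without KO saline replicate 2 or 3 or WT saline replicate 1, 3 or 4. The interferon-gamma list overlaps the regulators, Irf1 among them, and the 2 lists share Tap1, Psmb8, Psmb9 and Nlrc5. Most of these genes were positive in KO AngII against WT AngII too, and none was called there. The counts were 18 of 19 interferon-gamma targets (median 0.41) and 11 of 12 class I genes (median 0.58), beside 54.9% of all genes. Genes of a list can move together, so their signs are not separate observations.

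The machinery that loads class II molecules showed no called gene among 13 tested. The abundant lysosomal proteases Ctsb and Ctsd were at 0.17 and 0.13 in WT AngII against WT saline and at 0.27 and 0.55 in KO saline against WT saline. In WT AngII against WT saline 12 of the 13 had positive log2 fold changes, with a median of 0.17. Ctss, named here after its values were seen, encodes the protease that trims the invariant chain in dendritic cells and B cells. It had 23.6, 20.2, 63.6 and 77.6 CPM in WT AngII and 11.0, 26.7, 13.4 and 24.1 CPM in WT saline (1.30, SE 0.41, edgeR adjusted p = 0.289). Of 6 tested co-stimulatory genes none was called. Cd274, encoding PD-L1, was at 0.71 and Icosl, the ligand of ICOS, at 0.45 in KO saline against WT saline.

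The remaining class II genes were highest in 1 library, KO AngII replicate 3. H2-Ob had 0.839, 1.62, 12.5 and 1.26 CPM in KO AngII, 2.58, 4.92, 2.25 and 1.53 CPM in KO saline, 1.72, 4.08, 1.60 and 2.14 CPM in WT AngII, and 1.08, 4.24, 1.59 and 2.56 CPM in WT saline. H2-DMb2 was at 8.80 CPM in KO AngII replicate 3 and at 0.881 to 3.36 CPM elsewhere. H2-Oa, the partner of H2-Ob, had 38 reads in that library and 12 or fewer in every other, and was below the expression filter. None of the 3 tested genes of this list was called in any comparison. H2-DMb1 and H2-DMb2 share 254 stretches of 75 bases, 15.8% of those of H2-DMb1 and 14.6% of those of H2-DMb2, so some of their reads could be assigned to either gene.

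KO AngII replicate 3 also stood apart in B cell markers. Its sum of 10 such genes was 162 CPM, while the other 3 KO AngII libraries had 19.5 to 30.0, KO saline 21.2 to 60.2, WT AngII 31.3 to 62.8 and WT saline 30.2 to 64.6 CPM. H2-Aa, at 81.6 CPM, was not the highest of the 16 libraries there. Ptprc, the leukocyte antigen CD45, correlated with Ciita at 0.840 over 16 libraries and at 0.750 without this library, and with H2-Ab1 at 0.510. H2-Ob correlated with Ciita at 0.561 and at 0.248 without this library. Whether B cells in or beside the vessel wall account for the Ciita value was not tested.

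**Figure D3:**
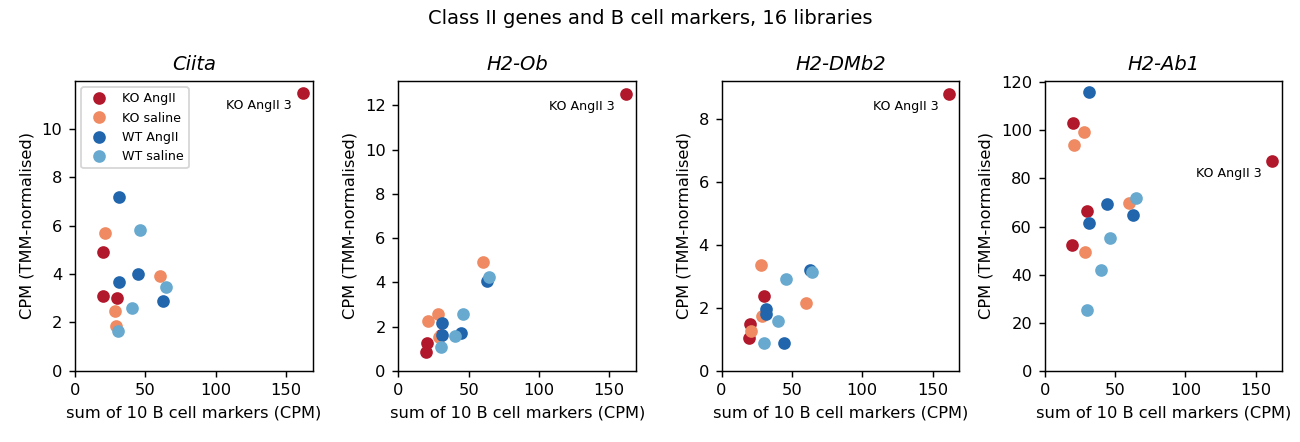
Each point is a library, with the summed CPM of 10 B cell markers on the x axis and the CPM of the named gene on the y axis, coloured by group. KO AngII replicate 3, at 162 CPM of B cell markers, is the highest library for Ciita, H2-Ob and H2-DMb2, while H2-Ab1 at 87.3 CPM there lies within the range of the other libraries.

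Class II transcripts were also set against leukocyte transcripts. The 7 genes together had 294 to 530 CPM in KO AngII, 258 to 522 in KO saline, 316 to 584 in WT AngII and 134 to 393 in WT saline. The 9 pan-leukocyte markers had 83.9 to 239 CPM in KO AngII, 90.9 to 114 in KO saline, 135 to 315 in WT AngII and 79.2 to 172 in WT saline. The ratio of these sums was 2.08 to 3.79 in KO AngII and 1.202 to 2.47 in WT AngII, which overlap. It was 2.84 to 5.01 in KO saline and 1.69 to 2.59 in WT saline, which do not overlap. Between these groups 11.1% of all single genes tested did not overlap either. The 5.01 belonged to the library labelled KO saline replicate 1, and the other 3 KO saline libraries lay at 2.84 to 4.02. Fcer1g, the signalling chain of Fc receptors and 1 of the 9 markers, had 2.97, 2.00, 2.60 and 3.80 CPM in KO saline and 5.90, 14.0, 7.55 and 13.0 CPM in WT saline (log2 fold change -1.83, SE 0.41, edgeR adjusted p = 0.0300). Without it the ratio was 2.96 to 5.16 in KO saline and 1.83 to 2.84 in WT saline. Fcer1g fell in KO AngII against WT AngII too (-2.56, SE 0.41, edgeR adjusted p = 0.00525). Under saline it was called under 18 of 25 other settings, and not without any of the KO saline libraries or WT saline replicates 3 and 4.

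**Figure D4:**
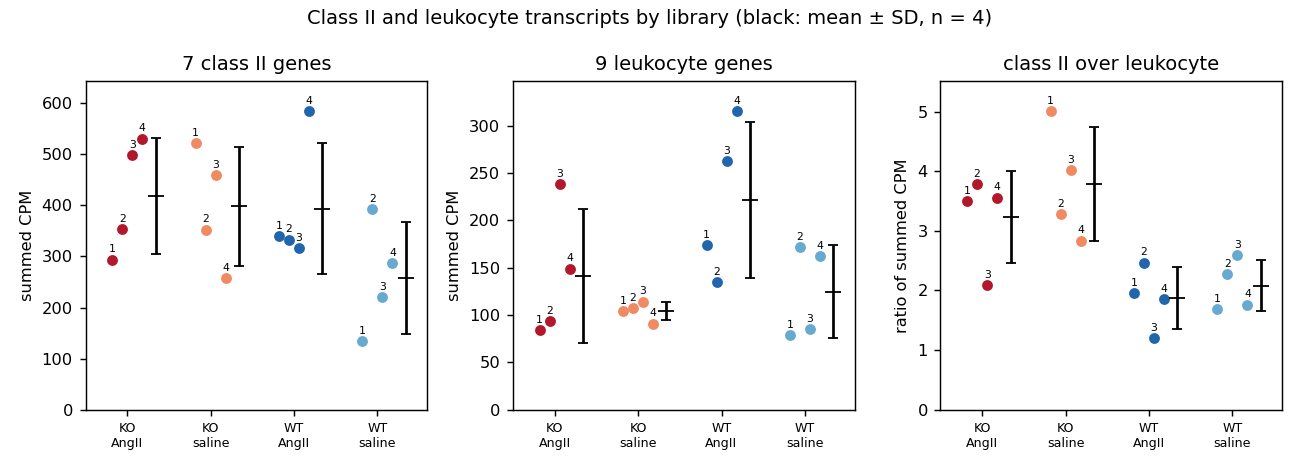
Panels give, per library with its replicate number, the summed CPM of the 7 class II genes, the summed CPM of 9 pan-leukocyte genes and the ratio of the sums, with mean ± SD in black (n = 4). In the ratio panel the 4 KO saline libraries lie at 2.84 to 5.01, above the 4 WT saline libraries at 1.69 to 2.59. The 5.01 is the library labelled KO saline replicate 1, whose Vamp8 level goes against its label. Of all single genes tested, 11.1% did not overlap between KO saline and WT saline.

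Markers of the cell types that make class II gave no called gene in any comparison. In WT AngII against WT saline, macrophage markers had a median log2 fold change of 0.53 (10 of 14 positive), monocyte markers 1.07 (5 of 6), dendritic cell markers 0.88 (10 of 11), B cell markers -0.06 (4 of 10) and T cell markers 0.33 (8 of 10). In KO saline against WT saline, the medians were -0.29 for macrophage, 0.59 for monocyte, 0.17 for dendritic cell, -0.30 for B cell and 0.07 for T cell markers. The class II sum over the macrophage sum was 1.21 to 1.92 in KO AngII and 0.555 to 1.05 in WT AngII, which do not overlap (9.35% of all single genes did not). It was 0.737 to 1.85 in KO saline and 0.446 to 0.949 in WT saline, which overlap. Over the B cell sum it was 3.07 to 26.4 in KO AngII and 5.30 to 18.7 in WT AngII. Under saline that ratio was 5.86 to 21.7 in KO and 4.42 to 6.22 in WT, and both pairs overlap.

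The search for genes with a like pattern took the mean log2 CPM of the 7 genes in each library. Of 13142 other protein-coding genes, with a median correlation of 0.0586, Cd52, a glycoprotein of lymphocytes and monocytes, was closest at 0.858 over 16 libraries and 0.867 after group means were removed. Limd2 (0.843), Cotl1 (0.816), Myc (0.813) and Rassf5 (0.809) followed. Irf8, a transcription factor of dendritic cells, macrophages and B cells, was at 0.807, and Coro1a, an actin regulator of leukocytes and another of the 9 pan-leukocyte markers, was at 0.805. Cyrib, Nipsnap3b and Nrros completed the first 10, each at 0.800.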

How the data were processed

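The authors deposited raw counts per gene from polyA RNA-seq, made with HISAT2 2.0.5 and featureCounts 1.5.0-p3 on mm39 (GRCm39), per the submitters' processing notes, which also name DESeq2 1.20.0. Of 29695 genes, filterByExpr kept 15984, holding at least 99.5% of each library's counts. edgeR 4.0.16 (R 4.3.3; TMM, quasi-likelihood test, 1 mean per group, all 16 libraries, 12 residual degrees of freedom) gave log2 fold changes, 95% intervals and p-values, adjusted by Benjamini-Hochberg over all tested genes; an adjusted p under 0.05 is a call. The dispersion corresponds to a biological coefficient of variation of 35.3%. DESeq2 1.42.0 and limma 3.58.1 voom with library quality weights were alternatives, with RLE scaling, no filter, libraries left out, mitochondrial genes left out and a replicate block. The steps were tested on simulated data. The labels call libraries biological replicates; p-values measure the spread between these libraries.

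The count table gave no gene type or length, so both came from GENCODE M21 (GRCm38). The chromosomes and the exon overlaps of the members also came from it, while the counts were made on GRCm39. Correlations used log2 CPM with a prior count of 2. Named were the 7 genes, per list up to 4 called genes or otherwise the 2 most abundant, and the 10 protein-coding genes most like the mean of the 7 (mean CPM of at least 1). The members and lists were chosen with earlier results of these data known. Lists share genes, and cell type lists mark types the tissue could hold.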

Additional observations from a re-analysis of the deposited data

Results flagged for a closer look

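In WT AngII, replicate 4 lay far above the other 3 libraries of its group for 4 of the 7 genes. It had 104 CPM of H2-Aa, 116 CPM of H2-Ab1, 103 CPM of H2-Eb1 and 219 CPM of Cd74, while the next highest WT AngII libraries had 55.6, 69.3, 59.0 and 137 CPM of these genes. For each, the gap to the nearest library took a larger share of the group's range than Dixon's 95% critical value for 4 samples. Chance gives such a gap in about 1 of 20 groups, and 28 combinations of gene and group were examined. The 4 genes move together, so they count as 1 observation. The same library had the highest leukocyte and macrophage marker sums, 315 and 692 CPM, whose part in these values was not tested.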

How the results depend on the processing

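Of 868 log2 fold changes of the 7 genes under other settings, 814 kept direction and side of the threshold, 48 reversed and 6 newly passed it. The count of called genes in KO saline against WT saline moved to 4 under limma voom with library quality weights, and was 0 to 2 with 1 library left out (2 without WT saline replicate 2). Over all genes, weighted voom called 3197 and the fit without WT saline replicate 2 called 1744, beside 481 in the main fit. With 1 library left out, the lowest and highest log2 fold changes there were 0.57 and 1.11 for H2-Aa, 0.56 and 1.09 for H2-Eb1, -0.084 and 0.16 for H2-DMb1, and -0.31 and 0.43 for Ciita. In KO AngII against KO saline they were -0.0036 and 0.34 for Cd74, -0.12 and 0.19 for H2-Aa, -0.20 and 0.13 for H2-Ab1, -0.053 and 0.37 for H2-DMa, and -0.26 and 0.11 for H2-Eb1. In KO AngII against WT AngII they were -0.29 and 0.68 for Ciita, -0.20 and 0.24 for H2-Ab1, -0.14 and 0.33 for H2-DMa, and -0.14 and 0.30 for H2-Eb1. The interaction spanned -0.34 to 0.65 for Ciita and -0.43 to 0.040 for H2-DMa.

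Other reversals were as follows, and the cause was not tested. Without KO AngII replicate 3 and WT AngII replicate 1, chosen after seeing the data, KO AngII against WT AngII gave -0.037 for Cd74, -0.34 for Ciita, -0.080 for H2-DMa and -0.11 for H2-Eb1. The same pair left out gave -0.38 for the Ciita interaction and -0.037 for H2-Aa in KO AngII against KO saline. With KO AngII replicate 4 and the library labelled KO saline replicate 1 both left out, H2-DMa was at -0.11 and H2-Eb1 at -0.12 in KO AngII against WT AngII. The weighted voom fit gave -0.34 for the Ciita interaction and -0.0052 for H2-Eb1 in KO AngII against WT AngII. With no filter, Ciita was at -0.019 and H2-DMb1 at -0.0030 in KO saline against WT saline, and H2-Ab1 at 0.011 in KO AngII against KO saline. Without mitochondrial genes Ciita was at -0.00036 in KO saline against WT saline. With the replicate block H2-Aa was at -0.031 in KO AngII against KO saline.

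Same-numbered libraries did not consistently deviate together (correlations of -0.42 to 0.44, and 2 or 3 of 8 libraries correlated best with their own number). With so few libraries per group, this check cannot decide whether the numbers pair the libraries. The replicate block called none of the 7 genes and 14, 42, 394, 166 and 3 of all genes, where the fit without it called 8, 71, 481, 324 and 3, in the order KO AngII against KO saline, WT AngII against WT saline, KO saline against WT saline, KO AngII against WT AngII, and the interaction. DESeq2 called 734, 280, 1362, 1230 and 97 genes in that order and weighted voom 561, 254, 3197, 580 and 173. With 24 to 210 reads, Ciita is the least precisely measured of the 7.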
